A study of Mus musculus with 16 samples.

Results

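The dystrophin-glycoprotein complex was followed at the level of its RNA through 8 genes: Dmd, Utrn, Dag1, Sgca, Sgcb, Sgcd, Sspn and Dtna. They were chosen by name, with earlier results of these data known. Each symbol was matched to its Ensembl identifier in the GENCODE annotation of GRCm38, and all 8 were found among the 29730 genes of the deposited count table. All 8 also passed the filter on low counts that left 14960 genes for testing.

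RNA had been sequenced from the tibialis anterior, a hindlimb muscle, of 16 male C57BL/6N mice aged 7 weeks. The 4 groups held 4 mice each: WT_PBS and WT_ASO were wild-type mice that received PBS or ASO1, and KO_PBS and KO_ASO were Bin1mck-/- mice that received the same. ASO1 is an antisense oligonucleotide directed at Dnm2, which encodes dynamin 2, and Bin1 encodes amphiphysin 2, a protein that bends membranes. In a line name, mck is the usual abbreviation of muscle creatine kinase, whose promoter is active in muscle fibres. The labels do not spell out the Cre, the deleted exons, or the dose and timing of the injections, and cells other than muscle fibres may keep Bin1. The series asked whether lowering Dnm2 alters the transcriptome of this model of recessive centronuclear myopathy.

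The complex spans the membrane of the muscle fibre and ties the actin cytoskeleton inside to the basement membrane outside. Dystrophin binds actin, beta-dystroglycan and the dystrobrevins and syntrophins. Alpha-dystroglycan binds laminin through a glycan, and the sarcoglycans with sarcospan form a subcomplex beside it. Utrophin is the relative of dystrophin that in adult muscle is found mainly at neuromuscular and myotendinous junctions. Loss of dystrophin causes Duchenne muscular dystrophy, and loss of a sarcoglycan causes a limb-girdle muscular dystrophy.

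Libraries held 27.6 to 40.9 M counts. Bin1 ran from 462.6 to 619.8 CPM (the reads of a gene per M reads of its scaled library) in wild-type samples and from 31.7 to 47.7 CPM in knockout samples, and Dnm2 from 50.2 to 67.7 CPM in PBS samples and from 20.7 to 31.1 CPM in ASO1 samples, so both targets matched the labels. Of 6 cardiac markers Tnni3, Nppa, Myl7 and Ryr2 stayed under 1 CPM in all groups. Myh6 ran from 1.97 to 9.84 CPM, and Myl4, a light chain that immature skeletal fibres also make, was the 1 of 3 cardiac markers tested that was higher in KO_PBS, at a mean of 15.2 CPM against 5.61 in WT_PBS. The summed markers of skeletal muscle fibres ran from 175629 to 217693 CPM in WT_PBS and from 182557 to 252093 CPM in WT_ASO. They ran from 141725 to 156284 CPM in KO_PBS and from 152823 to 179427 CPM in KO_ASO. The tissue was not uniform between groups. Summed macrophage markers ran from 48.2 to 78.1 CPM in WT_PBS, from 50.5 to 111.6 CPM in WT_ASO, from 126.7 to 378.7 CPM in KO_PBS and from 52.2 to 81.7 CPM in KO_ASO, and all 11 were higher in KO_PBS than in WT_PBS by the test used below. By the same test 4 of 5 satellite cell markers, 3 of 10 skeletal fibre markers and 3 of 8 markers of smooth muscle and pericytes were lower. In bulk muscle, fewer cells of a type and less RNA per cell cannot be told apart, and the part of these markers in the results was not tested.

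The genes of the complex differ widely in size, which bears on how their counts are read. Dmd (ENSMUSG00000045103) spans 2257.3 kb of chromosome X, from 82948870 to 85206141 on the plus strand of GRCm38, and its joined exons cover 23801 bases. Sgcd (ENSMUSG00000020354) is the other giant locus and spans 1092.7 kb of chromosome 11, from 46896253 to 47988969 on the minus strand, with 8257 exonic bases. Sgca (ENSMUSG00000001508) lies on the same chromosome, from 94962791 to 94976327 on the minus strand, and has 1735 exonic bases within 13.5 kb. RefSeq places the start of Dmd at position 82948870 and also lists a start at 85048295, 2.1 Mb downstream, so that a count over the whole gene pools the full-length muscle product with short products that lack most of the rod.

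Promoter windows are shown for these 3 genes because they bracket the range of levels and changes described below, and for the internal start of Dmd because its product is counted with the long one. Each line gives the 250 bases before a RefSeq start (GRCm38.p6), 5′ to 3′ on the gene's strand, with motif matches in capitals. Both strands were searched. The E box, which myogenic regulatory factors bind, was searched as CAGCTG in its symmetric form and also as CACCTG in a common variant. The core that ETS family factors bind was taken as TTCCGG, on any flank, and the TATA box of core promoters as TATAAA, wherever it lay. The GC box of housekeeping promoters was taken as GGGCGG. The CArG box, which serum response factor binds, and the MEF2 site are degenerate.
Dmd, first start (chrX:82948620-82948869, plus strand): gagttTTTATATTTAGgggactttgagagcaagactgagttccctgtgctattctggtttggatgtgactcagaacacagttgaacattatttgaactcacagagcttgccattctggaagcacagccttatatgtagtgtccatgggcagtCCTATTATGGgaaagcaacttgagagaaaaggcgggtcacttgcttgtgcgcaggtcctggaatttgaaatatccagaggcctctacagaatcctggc
Dmd, internal start (chrX:85048045-85048294, plus strand): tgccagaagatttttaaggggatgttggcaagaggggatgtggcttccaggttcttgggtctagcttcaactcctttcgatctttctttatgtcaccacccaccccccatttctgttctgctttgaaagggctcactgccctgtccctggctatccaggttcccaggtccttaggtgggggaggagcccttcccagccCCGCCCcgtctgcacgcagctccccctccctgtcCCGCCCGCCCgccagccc
Sgcd (chr11:47379326-47379575, minus strand): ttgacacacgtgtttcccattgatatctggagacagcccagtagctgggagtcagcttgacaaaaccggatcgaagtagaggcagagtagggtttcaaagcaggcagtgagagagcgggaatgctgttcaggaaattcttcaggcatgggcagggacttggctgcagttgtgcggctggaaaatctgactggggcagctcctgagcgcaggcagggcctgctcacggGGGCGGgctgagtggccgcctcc
Sgca (chr11:94976328-94976577, minus strand): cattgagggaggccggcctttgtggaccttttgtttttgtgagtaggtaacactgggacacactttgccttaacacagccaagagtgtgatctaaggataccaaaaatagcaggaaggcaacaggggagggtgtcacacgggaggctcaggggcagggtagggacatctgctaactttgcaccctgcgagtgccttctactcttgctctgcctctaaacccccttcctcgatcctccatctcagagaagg

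The window of the first Dmd start held a CArG box 98 bases before the start, a motif in 1.47% of 32851 windows of this length. It also held a MEF2 site 244 bases before the start, a motif in 1.69% of windows, which overlaps a TATAAA match on the opposite strand (12.4% of windows). The internal Dmd start had none of these and instead 3 matches to GGGCGG, which 32.7% of windows contain. Sgcd had 1 GGGCGG match 23 bases before its start, and that RefSeq start lies inside the longer GENCODE span of the gene. Sgca had no match to any of the 7 motifs, which says only that these letters are not in this window. CAGCTG was in 13%, CACCTG in 17.2% and TTCCGG in 12.0% of windows, and none of them was in the windows of the 7 members searched. GC content was 45.2% at the first Dmd start and 60.0% at the internal one, beside a median of 52.4% over all windows. A match is a description of sequence and not evidence of binding.

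Levels of different genes were compared as CPM per kb of exon. In WT_PBS the order ran from Sgca, which encodes alpha-sarcoglycan, at 134.2 ± 18.9 CPM per kb (SD, n = 4) down to Sgcd, which encodes delta-sarcoglycan, at 0.801 ± 0.0879 CPM per kb (SD, n = 4). Both proteins belong to the same membrane subcomplex. Between them came Dag1 at 42.3 ± 4.48, Sgcb at 40.3 ± 7.57, Sspn at 27.2 ± 3.0, Dtna at 6.61 ± 0.383, Dmd at 3.80 ± 0.587 and Utrn at 1.66 ± 0.167 CPM per kb (SD, n = 4). The order of the means was the same in all 4 groups. The neighbours Dag1 and Sgcb overlapped in every group, and Dtna and Dmd overlapped in KO_PBS, where their means were 6.45 and 4.98 CPM per kb. The other neighbours did not overlap in any group. Joined exons count every annotated isoform, including transcript ends that muscle may not use, so the level per kb of Dmd, Sgcd and Dtna depends on the annotation.

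**Figure D1:**
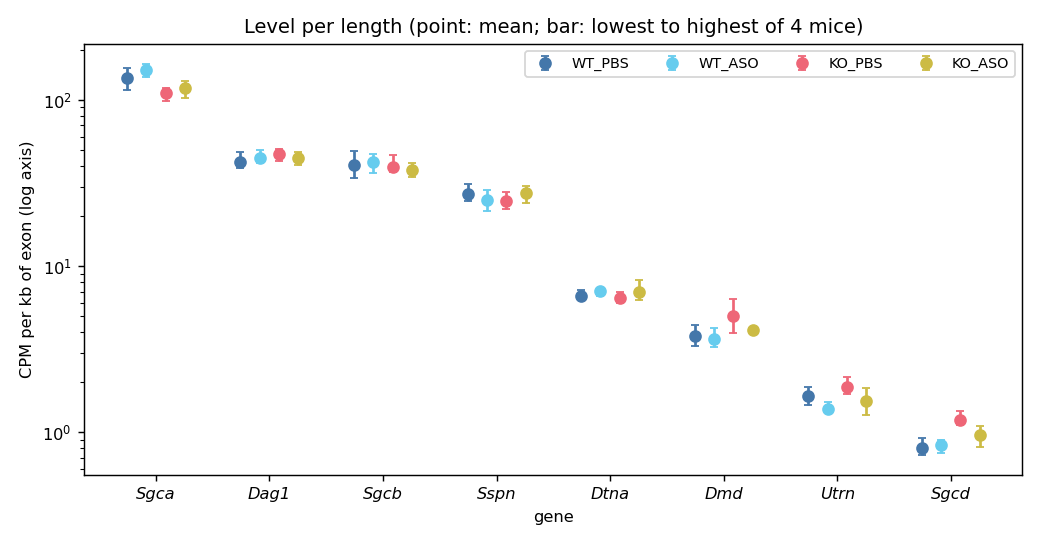
CPM per kb of exon on a log axis for the 8 genes, ordered by level, with points for the mean and bars from the lowest to the highest of 4 mice in WT_PBS, WT_ASO, KO_PBS and KO_ASO. Sgca lies highest at 134.2 and Sgcd lowest at 0.801 CPM per kb in WT_PBS, and the order of the means is the same in all groups.

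The first comparison asked how loss of Bin1 bears on the complex, with KO_PBS set against WT_PBS. Sgcd rose and was the only member of the 8 to pass the test, whereas 12.6% of all genes tested did so (1878 of 14960). In this fit members thus passed about as often as genes at large. The median log2 fold change (log2FC) of the 8 was 0.07, beside -0.01 over all genes, and their median absolute log2FC was 0.17, beside 0.20. A log2FC was fitted with edgeR over all 16 samples, and an adjusted P value under 0.05 over all genes was counted as passing. Some other settings called more members, and more genes at large. Besides Sgcd, DESeq2 called Dmd and Sgca, with 2522 genes called in all. An edgeR fit with replicate numbers as a block called the same members, with 2322 genes. Scaling by library totals alone added Dmd and Dag1, with 2202 genes.

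Sgcd encodes delta-sarcoglycan, a small transmembrane glycoprotein with its larger part outside the cell. It measured 6.73, 7.60, 6.12 and 6.02 CPM in the 4 WT_PBS mice and 11.1, 9.18, 9.48 and 9.17 CPM in the 4 KO_PBS mice. Every KO_PBS mouse lay above every WT_PBS mouse, as was the case for 10.5% of all genes tested. The fitted level in KO_PBS was 147.5% of that in WT_PBS, a log2FC of 0.56 (SE 0.11, 95% interval 0.32 to 0.80, edgeR adjusted P = 0.00447). An exact permutation test over the 8 mice, taken in both directions, gave P = 0.0286, and 4 against 4 allows no smaller value. KO_PBS replicate 1 was the highest, and without it the log2FC was 0.49 (edgeR adjusted P = 0.0199). Counts of Sgcd were low, with 204 to 404 reads per library, and the gene remained the least abundant of the 8 per kb in KO_PBS at 1.18 CPM per kb.

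Dmd encodes dystrophin itself. It measured 78.7, 99.2, 78.6 and 105.6 CPM in WT_PBS and 120.0, 109.8, 93.9 and 150.5 CPM in KO_PBS. The groups overlapped, since KO_PBS replicate 3 lay below 2 of the WT_PBS mice. The log2FC was 0.39 (SE 0.13, 95% interval 0.11 to 0.67), which did not pass in edgeR (adjusted P = 0.0643) but did in DESeq2 (adjusted P = 0.0395) and without KO_PBS replicate 3 in edgeR (adjusted P = 0.0239). Without KO_PBS replicate 4, the highest, it was 0.26 (edgeR adjusted P = 0.186), and without replicate 3 it was 0.48. Scaling by library totals alone gave 0.54 (edgeR adjusted P = 0.0115), on a scale where the median of all genes was 0.14 rather than -0.01.

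Sgca encodes alpha-sarcoglycan, which is made almost only in striated muscle. It measured 212.0, 270.5, 249.2 and 199.7 CPM in WT_PBS and 170.3, 192.7, 205.3 and 191.3 CPM in KO_PBS. Only KO_PBS replicate 3 reached into the range of the WT_PBS mice. The log2FC was -0.29 (SE 0.11, 95% interval -0.52 to -0.07), which did not pass in edgeR (adjusted P = 0.0769) and lay just under the threshold in DESeq2 (adjusted P = 0.0492). With library totals alone it was -0.14 (edgeR adjusted P = 0.328). Beside it, the 10 skeletal fibre markers had a median log2FC of -0.38, with 3 of them lower by the test, and their part in this value was not tested. Reads of Sgcd amounted to 2.46% to 3.17% of those of Sgca in the 4 WT_PBS mice and to 4.62% to 6.54% in the 4 KO_PBS mice, a ratio chosen after the values of both genes were seen and given without a test.

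The remaining 5 members did not pass. On GRCm38 Utrn (ENSMUSG00000019820) lies on chromosome 10 from 12382188 to 12869365 (minus strand), Dag1 (ENSMUSG00000039952) on chromosome 9 from 108204634 to 108263958 (minus) and Sgcb (ENSMUSG00000029156) on chromosome 5 from 73632749 to 73647790 (minus). Sspn (ENSMUSG00000030255) lies on chromosome 6 from 145931641 to 145965223 (plus) and Dtna (ENSMUSG00000024302) on chromosome 18 from 23415135 to 23659715 (plus). All 8 genes are annotated as protein coding, and counts were taken over whole genes.

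Utrn measured 28.5 ± 2.86 CPM in WT_PBS and 32.1 ± 3.28 CPM in KO_PBS (SD, n = 4), a log2FC of 0.17 (95% interval -0.06 to 0.40, edgeR adjusted P = 0.329). The log2FC was 0.10 without KO_PBS replicate 1 (edgeR adjusted P = 0.65) and 0.32 with library totals alone (edgeR adjusted P = 0.0888). Beside it, summed markers of the neuromuscular junction ran from 184.4 to 215.1 CPM in WT_PBS, from 277.4 to 336.3 CPM in KO_PBS and from 215.7 to 260.3 CPM in KO_ASO, and 5 of 9 were higher in KO_PBS than in WT_PBS. Summed markers of regenerating or immature fibres ran from 31.7 to 36.1 CPM, from 95.5 to 138.4 CPM and from 55.0 to 68.5 CPM in the same groups. The part of either in the members' values was not tested. Dag1, which encodes the precursor that is cut into alpha- and beta-dystroglycan, measured 268.8 ± 28.5 and 300.6 ± 20.3 CPM (SD, n = 4), a log2FC of 0.16 (95% interval -0.04 to 0.36, edgeR adjusted P = 0.281). Under library totals alone Dag1 passed (edgeR adjusted P = 0.0233). Sgcb (beta-sarcoglycan) had a log2FC of -0.02 (95% interval -0.29 to 0.25), Sspn (sarcospan) of -0.14 (95% interval -0.38 to 0.09) and Dtna (alpha-dystrobrevin) of -0.04 (95% interval -0.22 to 0.15), and library totals alone turned all 3 to positive values of 0.13, 0.01 and 0.12. Exons of Dtna overlap Gm47898 on the other strand, and the strand setting of the counting is not given in the sources used here.

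**Figure D2:**
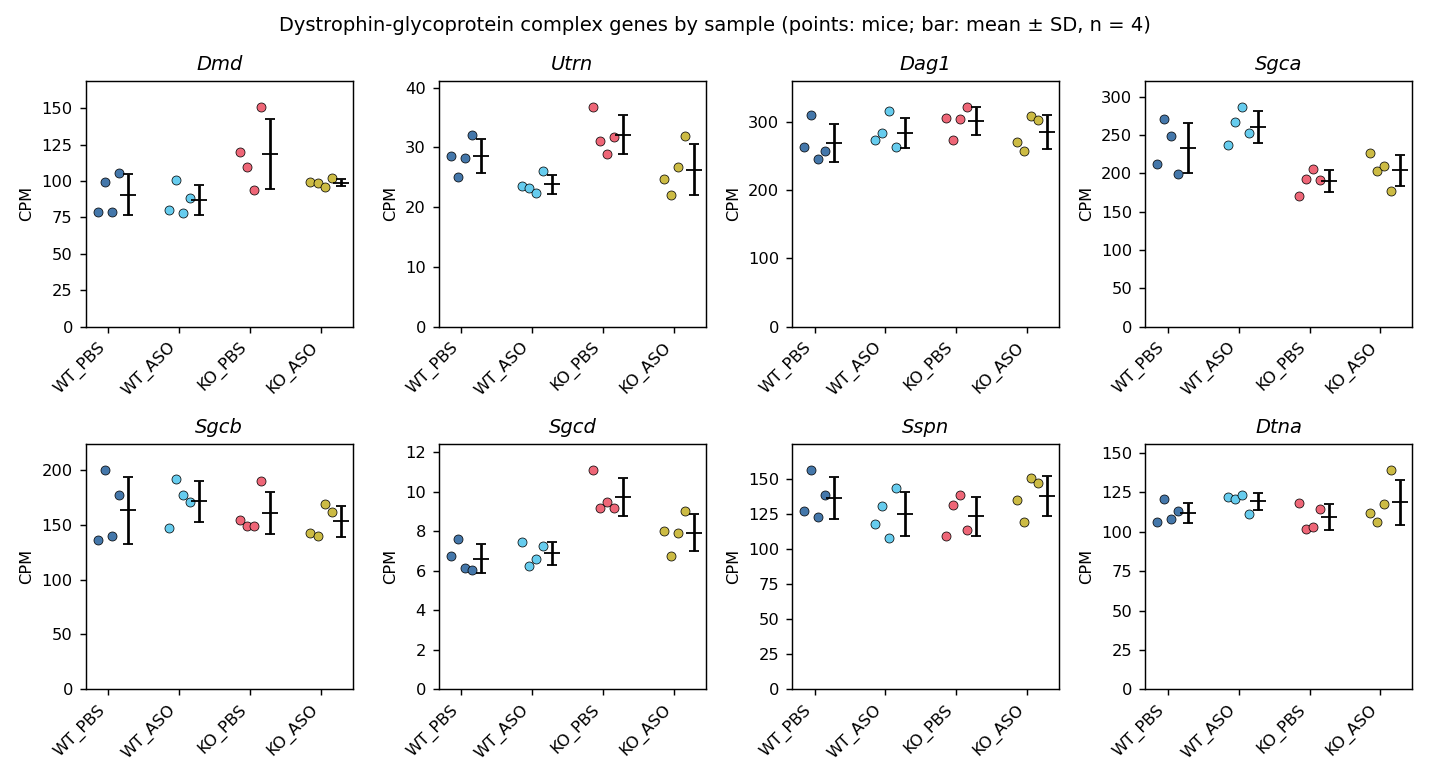
CPM of the 8 genes in each of 16 mice, with a point per mouse and a bar for the mean ± SD of 4 mice in WT_PBS, WT_ASO, KO_PBS and KO_ASO, each axis starting at 0. The 4 KO_PBS mice lie above all WT_PBS mice for Sgcd, at 9.17 to 11.1 against 6.02 to 7.60 CPM, while KO_PBS and WT_PBS overlap for the other 7 genes.

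The question of whether utrophin and dystrophin shifted against each other was asked within each sample, where scaling plays no part. Reads of Utrn amounted to 36.2%, 25.3%, 35.9% and 30.4% of those of Dmd in the WT_PBS mice and to 30.6%, 28.2%, 30.8% and 21.1% in the KO_PBS mice. The ranges overlapped. The mean log2 ratio was -1.66 ± 0.24 in WT_PBS and -1.87 ± 0.26 in KO_PBS (SD, n = 4), a difference of -0.21 (two-sided exact permutation P = 0.314, adjusted over 3 comparisons 0.471). KO_ASO stood at -1.92 ± 0.21 and WT_ASO at -1.86 ± 0.17 (SD, n = 4). Their differences were -0.05 from KO_PBS (exact permutation P = 0.80, adjusted 0.80) and -0.20 from WT_PBS (exact permutation P = 0.20, adjusted 0.471). With each sample left out in turn, the difference of KO_PBS from WT_PBS ran from -0.31 to -0.08 and that of WT_ASO from WT_PBS from -0.31 to -0.11.

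The effect of ASO1 in Bin1mck-/- mice was read from KO_ASO against KO_PBS. None of the 8 members passed in edgeR, whereas 3.64% of all genes did. At an unadjusted P under 0.05 there were 2 members, Sgcd and Utrn, beside 17.7% of all genes. DESeq2 also called 0 of the 8, and 1056 of all 14960 genes. The median log2FC of the members was -0.07, beside 0.01 over all genes. The same KO_PBS samples serve in this comparison and in the former one, so the values of both are not independent.

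Sgcd measured 8.01, 6.74, 7.89 and 9.02 CPM in KO_ASO. All 4 values lay below the 4 values of KO_PBS, an order in the lower direction that 6.34% of all genes showed. The log2FC was -0.30 (SE 0.11, 95% interval -0.54 to -0.06, edgeR adjusted P = 0.164, exact permutation P = 0.0286). Against WT_PBS the fitted level in KO_ASO stood at 119.8%, a log2FC of 0.26 (95% interval 0.02 to 0.50, edgeR adjusted P = 0.566). Reads of Sgcd were 3.32% to 5.11% of those of Sgca in KO_ASO.

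Utrn measured 36.7, 31.0, 28.9 and 31.8 CPM in KO_PBS and 24.7, 22.0, 26.8 and 31.9 CPM in KO_ASO. KO_ASO replicate 4 lay within the range of KO_PBS and the other 3 below it. The log2FC was -0.29 (SE 0.11, 95% interval -0.52 to -0.06, edgeR adjusted P = 0.166), and without KO_ASO replicate 4 it was -0.39 and passed (edgeR adjusted P = 0.0375). Without KO_PBS replicate 1, the highest, it was -0.22 (edgeR adjusted P = 0.423). Dmd measured 99.0, 98.3, 96.0 and 101.9 CPM in KO_ASO. These 4 mice lay close together, above the lowest KO_PBS mouse and below the other 3. The log2FC was -0.26 (95% interval -0.54 to 0.02, edgeR adjusted P = 0.317), and with each sample left out it ran from -0.36 to -0.14. Sgca measured 226.1, 202.8, 209.9 and 176.6 CPM in KO_ASO, a log2FC of 0.10 (95% interval -0.12 to 0.33, edgeR adjusted P = 0.691). Dag1, Sgcb, Sspn and Dtna had log2FCs between -0.08 and 0.16, with adjusted P values from 0.496 to 0.848 in edgeR.

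**Figure D3:**
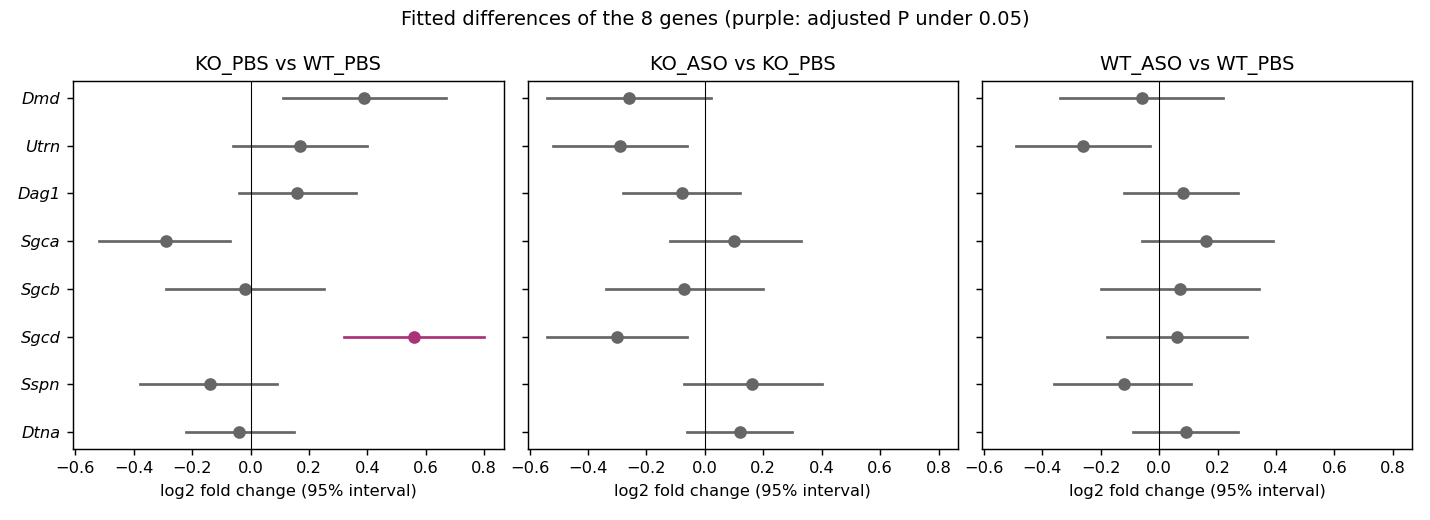
Fitted log2 fold changes of the 8 genes with 95% intervals for KO_PBS vs WT_PBS, KO_ASO vs KO_PBS and WT_ASO vs WT_PBS, with purple for an adjusted P value under 0.05. Sgcd in KO_PBS vs WT_PBS, at 0.56, is the only purple point, and the KO_PBS group enters both of the first comparisons.

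In wild-type mice ASO1 gave no member past the threshold, where edgeR called 1 of 14960 genes (0.00668%) and 965 genes (6.45%) had an unadjusted P under 0.05. DESeq2 also called 0 of the 8. Utrn was the 1 member with an unadjusted P under 0.05. It measured 28.5, 25.1, 28.2 and 32.1 CPM in WT_PBS and 23.6, 23.2, 22.4 and 26.0 CPM in WT_ASO. The ranges met only where WT_ASO replicate 4 exceeded WT_PBS replicate 2. The log2FC was -0.26 (SE 0.11, 95% interval -0.49 to -0.03, edgeR adjusted P = 0.749, exact permutation P = 0.0571). Beside it, all 8 markers of smooth muscle and pericytes had log2FCs below 0 (median -0.38), as had all 8 endothelial markers (median -0.17). Of these 16, 8 had an unadjusted P under 0.05, and the lowest adjusted P in edgeR was 0.435. In KO_ASO against KO_PBS, where Utrn had -0.29, the medians were 0.15 for smooth muscle and pericytes and 0.26 for endothelium. In KO_PBS against WT_PBS, where Utrn had 0.17, they were -0.31 and -0.25. The part of these markers in the values for Utrn was not tested. In WT_ASO against WT_PBS the log2FCs of the other 7 members lay between -0.12 and 0.16, with Sgcd at 0.06 (95% interval -0.18 to 0.30).

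Genotypes were also compared under treatment, with KO_ASO set against WT_ASO. No member passed in edgeR, where 0.0735% of all genes did (11 of 14960), and 1 member had an unadjusted P under 0.05, beside 15.1% of all genes. That member was Sgca, at 237.6, 267.5, 286.2 and 252.5 CPM in WT_ASO and 176.6 to 226.1 CPM in KO_ASO. All KO_ASO mice lay below all WT_ASO mice, an order in that direction that 4.00% of all genes showed. The log2FC was -0.36 (SE 0.11, 95% interval -0.58 to -0.13, edgeR adjusted P = 0.147, exact permutation P = 0.0286). It passed in DESeq2 (adjusted P = 0.0435), which called 422 of all 14960 genes here. With each sample left out the log2FC ran from -0.41 to -0.29 (edgeR adjusted P from 0.120 to 0.353). Beside it, the 10 skeletal fibre markers had a median log2FC of -0.32, with 1 of the 10 above 0, and their part in this value was not tested. Sgcd had a log2FC of 0.20 (95% interval -0.04 to 0.44) here. KO_ASO against WT_PBS gave no member either, with 0.0401% of all genes called by edgeR, 0 of the 8 called by DESeq2, and 1 member, Sgcd, at an unadjusted P under 0.05, as for 8.22% of all genes.

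Whether the effect of ASO1 differed between genotypes was tested with the interaction term, (KO_ASO minus KO_PBS) minus (WT_ASO minus WT_PBS). No member passed in edgeR or DESeq2, beside 0.575% of all genes in edgeR. Sgcd came nearest at -0.36 (SE 0.16, 95% interval -0.70 to -0.02, edgeR adjusted P = 0.370), and it was the 1 member with an unadjusted P under 0.05, beside 12.7% of all genes. Sspn had 0.29 (95% interval -0.05 to 0.62, edgeR adjusted P = 0.484). Utrn had -0.03 (95% interval -0.35 to 0.30), since its log2FC was -0.29 in knockout and -0.26 in wild-type mice.

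Proteins that join the complex without being among the 8 were read from a list of 14 genes, of which 12 were tested. In KO_PBS against WT_PBS 2 of the 12 rose, with a median log2FC of 0.02 and 7 of the 12 above 0. Of all genes tested 7.43% rose and 5.12% fell. In these counts and those below, rose and fell mean passing the edgeR test in that direction. Cav3 encodes caveolin 3, the muscle caveolin, which binds dystroglycan. It measured 58.6, 59.6, 59.1 and 48.6 CPM in WT_PBS and 126.2, 89.1, 81.8 and 78.8 CPM in KO_PBS, with no overlap, and the log2FC was 0.74 (SE 0.16, edgeR adjusted P = 0.00757). Without KO_PBS replicate 1, the highest, it was 0.56 (edgeR adjusted P = 0.0284). Sync encodes syncoilin, an intermediate filament protein that binds alpha-dystrobrevin. It measured 37.6 to 46.4 CPM in WT_PBS and 54.5 to 68.1 CPM in KO_PBS, and its log2FC was 0.56 (SE 0.14, edgeR adjusted P = 0.0162). This call for Sync was lost without WT_PBS replicate 4 (edgeR adjusted P = 0.0603) and without KO_PBS replicate 1 (edgeR adjusted P = 0.0536), and its exons overlap Rbbp4 on the other strand.

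Caveolin 3 was also the 1 gene of this list that fell in KO_ASO against KO_PBS, as 2.83% of all genes did. It measured 57.6, 48.5, 59.0 and 65.7 CPM in KO_ASO, all below KO_PBS, with a log2FC of -0.70 (edgeR adjusted P = 0.0260). That call rested on the libraries used: edgeR adjusted P values were 0.0540 with the compared groups alone, 0.0852 without KO_PBS replicate 1 and 0.0772, 0.0751 and 0.0610 without KO_ASO replicates 1, 2 and 3. The log2FC was -0.54 without KO_PBS replicate 1 and between -0.72 and -0.64 in the rest of these. The interaction was -0.85 (SE 0.23), which did not pass in edgeR (adjusted P = 0.116, and from 0.0623 to 0.255 over its other settings and with each sample left out). It passed in DESeq2 (adjusted P = 0.0246), which called 385 genes for the interaction where edgeR called 86. Nos1, which encodes the neuronal nitric oxide synthase that joins the complex, had a log2FC of -0.31 in KO_PBS against WT_PBS (edgeR adjusted P = 0.251).

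The matrix side was read from 11 ligands of dystroglycan and proteins that bind beside them, 10 of them tested. In KO_PBS against WT_PBS 1 rose and 1 fell, with a median log2FC of 0.15. Egflam encodes pikachurin, a laminin G-domain protein that binds the glycan of alpha-dystroglycan. It measured 34.2, 33.3, 33.4 and 31.9 CPM in WT_PBS and 15.1, 22.4, 23.6 and 19.0 CPM in KO_PBS. The 4 KO_PBS mice lay below all WT_PBS mice, as for 9.85% of all genes, and the log2FC was -0.73 (SE 0.11, edgeR adjusted P = 0.000603). In KO_ASO Egflam measured 28.4, 26.7, 27.5 and 26.7 CPM, between KO_PBS and WT_PBS, and it rose against KO_PBS, as 0.802% of all genes did, by a log2FC of 0.45 (SE 0.11, edgeR adjusted P = 0.0387). That call was lost with library totals alone (edgeR adjusted P = 0.0934), with the compared groups alone (0.101) and without KO_PBS replicate 1 (0.120), KO_PBS replicate 4 (0.106) or KO_ASO replicates 1, 2 and 3 (0.109, 0.0840 and 0.0961). The log2FC was 0.35 with library totals alone, 0.33 without KO_PBS replicate 1 and from 0.41 to 0.45 in the rest of these.

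Bgn encodes biglycan, a small proteoglycan that binds alpha-dystroglycan and sarcoglycans. It measured 53.0 to 69.9 CPM in WT_PBS and 248.5, 122.9, 139.2 and 135.1 CPM in KO_PBS. Its log2FC was 1.35 (SE 0.29, edgeR adjusted P = 0.00808), and 1.06 without KO_PBS replicate 1 (edgeR adjusted P = 0.0295). Fibroblasts make biglycan, and summed fibroblast markers ran from 1410 to 1720.5 CPM in WT_PBS and from 1811 to 2936 CPM in KO_PBS, with 5 of 9 higher, and their part in this result was not tested. In KO_ASO biglycan measured 55.9, 48.0, 88.1 and 126.2 CPM, a log2FC of -1.02 against KO_PBS that did not pass in edgeR (adjusted P = 0.0671) and passed in DESeq2 (adjusted P = 0.00806) and in edgeR without KO_ASO replicate 4 (adjusted P = 0.0150). Without KO_PBS replicate 1 it was -0.74 (edgeR adjusted P = 0.230). The summed fibroblast markers ran from 837.4 to 2135.7 CPM in KO_ASO, with 3 of 9 lower than in KO_PBS and a median log2FC of -0.80. Lama2, which encodes the alpha chain of the main muscle laminin, had a log2FC of 0.24 in KO_PBS against WT_PBS (edgeR adjusted P = 0.268) and 0.39 with library totals alone, which passed (edgeR adjusted P = 0.0458).

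Alpha-dystroglycan binds laminin only once enzymes have built its O-mannosyl glycan. Of the 17 genes for such enzymes read here 16 were tested. In KO_PBS against WT_PBS their median log2FC was -0.08, with 6 of the 16 above 0, beside a median of -0.01 over all genes tested. In KO_ASO against KO_PBS the median log2FC of the 16 was 0.02, with 9 above 0.

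**Figure D4:**
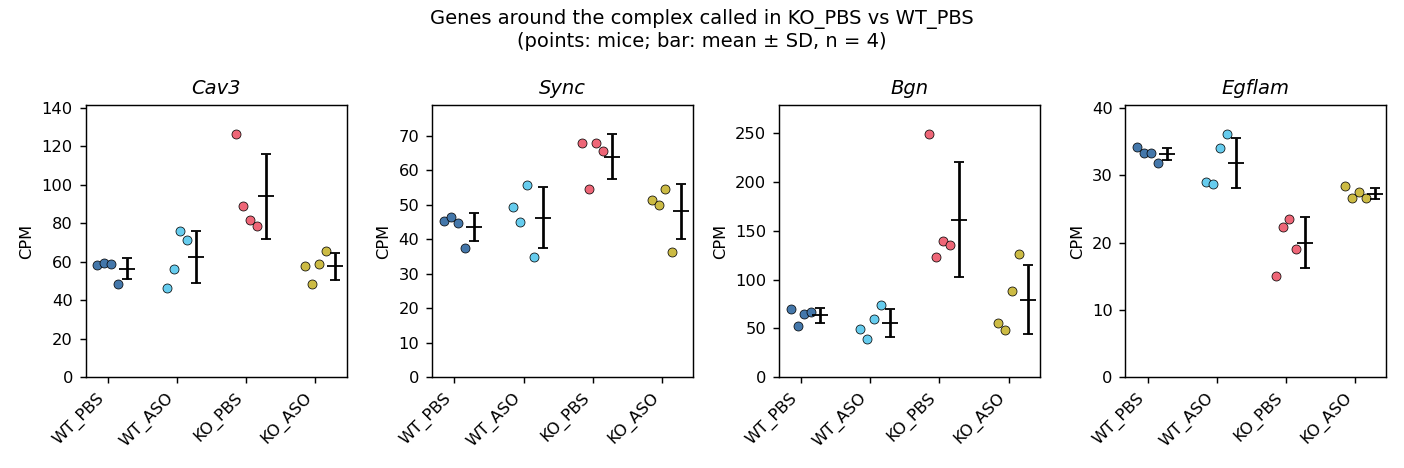
CPM of Cav3, Sync, Bgn and Egflam in each of 16 mice, with a point per mouse and a bar for the mean ± SD of 4 mice per group, each axis starting at 0. In KO_PBS the first 3 lie above WT_PBS and Egflam below it, and KO_PBS replicate 1 stands highest for Cav3 at 126.2 and for Bgn at 248.5 CPM.

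Other long transcripts of muscle, which vary in length, were set beside Dmd. Of 12 very long muscle transcripts, Utrn among them, 1 rose and 1 fell in KO_PBS against WT_PBS, with a median log2FC of -0.12 beside 0.39 for Dmd. Macf1, a linker of microtubules and actin, rose by a log2FC of 0.64 (SE 0.13, edgeR adjusted P = 0.00444), and 0.47 without KO_PBS replicate 1 (edgeR adjusted P = 0.0112). Syne2, which encodes the nuclear envelope protein nesprin 2, fell by 0.44 on the log2 scale (SE 0.09, edgeR adjusted P = 0.00408), and by 0.29 with library totals alone (edgeR adjusted P = 0.0485). These 2 are named because they were the ones that passed, after their values were seen.

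Variation between mice of a group was described by Pearson correlations of log2 CPM after the group means had been taken off, over 16 samples that share no library but do share scaling. Of the 28 pairs of members, Dmd and Sgcb had the highest value at 0.75, followed by Dag1 and Dtna at 0.71 and Dag1 and Sgcb at 0.70. Utrn and Sgca ran opposite, at -0.75. Sgcd followed neither Dmd (-0.04) nor Sgca (-0.18), and its highest values were with Dtna (0.60), Dag1 (0.45) and Utrn (0.43). Over all 12113 genes with a mean of at least 1 CPM, the patterns most like that of Dmd were Evi5 at 0.971, Washc4 at 0.941 and Rsbn1l at 0.938, and those most like that of Utrn were Dennd4a and Pdia3, both at 0.903, and Ccna2 at 0.880.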

How the data were processed

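RNA from 16 tibialis anterior muscles, isolated with TRI Reagent and made into libraries with a TruSeq stranded mRNA kit per the labels, was measured as counts. What the authors deposited is a single table of raw counts, not normalized, with Ensembl genes down and samples across. Tools in the submitters' processing notes, listed without their roles, are STAR 2.5.3a, HTSeq 0.6.1p1, Bowtie2 2.2.8 and cutadapt 1.10, with the build GRCm38 (mm10). No source used here gives the strand setting of the counting. The paper supplied with the series concerns another mouse line, so it did not set the design. All 29730 identifiers matched GENCODE M21 of GRCm38.

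Genes were filtered with filterByExpr by group in edgeR 4.0.16 (R 4.3.3), which took out 14770 and left 14960. Library sizes were scaled by TMM. All 16 samples entered 1 robust quasi-likelihood fit with a mean for each group, and the common biological coefficient of variation was 18.7%. Benjamini-Hochberg adjustment ran over all genes tested in a comparison, with a threshold of 0.05. The SE was taken from the quasi-likelihood F, and 95% intervals from its degrees of freedom. CPM used the TMM-scaled sizes. Correlations used log2 CPM with a prior count of 2. The model was tested on simulated data with the same dispersion for all genes and known changes larger than that of any member. That test does not bear on changes as small as those of the members. Totals ran from 27591900 to 40862854 counts, and 2 samples of a group differed by a chi-square of at least 21.7 per gene on average, so within a group no library appeared to be deposited more than once. The labels do not say outright that replicates are separate mice; they are taken to be, and P values measure the spread between these samples. Exact permutation tests were two-sided, and 0.0286 is the smallest P that 4 against 4 allows.

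Alternatives were DESeq2 1.42.0, RLE scaling, library totals alone, no filter, the compared groups alone, a replicate block and leaving out each sample. Deviations of same-numbered samples of different groups had a mean r of 0.116 (from -0.0777 to 0.435), beside -0.0391 (from -0.382 to 0.195) for other numbers. In 13 of 16 samples the mean r was highest for their own number. No label says what the numbers share, so the main fit did not pair samples by them, and this was not tested further. The members and gene lists were chosen with earlier results of these data known. Named genes were the 8 members, every gene of the lists of associated proteins, ligands and glycosylation enzymes called in KO_PBS vs WT_PBS, KO_ASO vs KO_PBS or the interaction, and Nos1, Cav3 and Lama2 whatever their result. Macf1 and Syne2 were named outside this rule, after their values were seen. For Dmd and Utrn the 3 genes with the highest correlation were added. Promoter windows came from RefSeq (GRCm38.p6). Dtna was left out of this search. Some genes of these lists are not reported here and are left out of the counts and medians given for them.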

Additional observations from a re-analysis of the deposited data

Results flagged for a closer look

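Some samples lay far from the other 3 of their group, with a gap to the nearest that exceeded Dixon's 95% critical value for 4 samples. This was examined in 68 groups of values and met in 8, where about 3.4 would be expected by chance. Among the 8 members, Sgcb was high in KO_PBS replicate 4 at 189.5 CPM and Sgcd in KO_PBS replicate 1 at 11.1 CPM. The log2 ratio of Utrn to Dmd was low in WT_ASO replicate 2 at -2.12. Among the genes around the complex, KO_PBS replicate 1 was high for Bgn at 248.5 CPM and for Macf1 at 171.9 CPM. KO_ASO replicate 4 was low for Nos1 at 135.1 CPM. Cav3 was low in WT_PBS replicate 4 at 48.6 CPM, and Syne2 was high in KO_PBS replicate 3 at 27.5 CPM. Calls that change without these samples are given beside each gene in the report. None of these values was tested for a cause.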

How the results depend on the processing

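Of 73 results, 6 other settings gave 414 values, of which 386 kept their direction and their side of the threshold, and leaving out each of 16 samples gave 1144, of which 1092 did. The cause of the changes was not tested. The count of members called in KO_PBS vs WT_PBS was 1, and 3 with library totals alone (Sgcd, Dmd and Dag1), 3 in DESeq2 and 3 with the replicate block (Sgcd, Dmd and Sgca). Of all 14960 genes, 1878 were called in the main fit, 2202 with library totals alone, 2522 in DESeq2 and 2322 with the block. The count of members was 1 to 2 when a sample was left out. The higher count came without KO_PBS replicate 3, where 1694 of 15095 genes were called. For KO_ASO vs KO_PBS it was 0 to 1 when a sample was left out. It was 1 without KO_ASO replicate 4, where 831 of 15203 genes were called. For KO_ASO vs WT_ASO it was 1 in DESeq2, beside 422 of 14960 genes. In 13 of 16 samples the mean correlation with the other groups' samples was highest for those of their own number, which is a hint from the data and not from the design. With the replicate block Dmd had an edgeR adjusted P of 0.022 and Sgca of 0.0477. The block also put Sync (0.0335), Bgn (0.0332) and Macf1 (0.0395) past the threshold in KO_ASO vs KO_PBS. There Sync (0.0329) and Macf1 (0.0358) also passed with library totals alone, and Macf1 (0.0324) and Bgn (0.00806) in DESeq2. In KO_ASO vs WT_PBS Syne2 passed in DESeq2 (0.0272, against 0.22 in edgeR), where DESeq2 called 95 genes and edgeR 6.

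Library totals alone turned the sign for Sgcb (0.13), Sspn (0.01) and Dtna (0.12) in KO_PBS vs WT_PBS, for Syne2 (-0.02) in KO_ASO vs KO_PBS, for Dtna (0.10) in KO_ASO vs WT_ASO and for Dtna (-0.02) in the interaction, all near 0 on the log2 scale. Leaving out a sample also turned log2FCs near 0. In KO_PBS vs WT_PBS these were Sgcb (-0.11 to 0.09) and Dtna (-0.07 to 0.00), and in KO_ASO vs KO_PBS Sgcb (-0.12 to 0.01). In WT_ASO vs WT_PBS they were Dmd (-0.14 to 0.02) and Sgcb (-0.01 to 0.18), and in KO_ASO vs WT_ASO Dag1 (-0.03 to 0.06) and Dtna (-0.09 to 0.04). In KO_ASO vs WT_PBS they were Sgcb (-0.17 to 0.02), Sspn (-0.03 to 0.09) and Dtna (0.00 to 0.12), and in the interaction Utrn (-0.13 to 0.05), Sgca (-0.14 to 0.01) and Dtna (-0.06 to 0.08). The difference in the log2 ratio of Utrn to Dmd between KO_ASO and KO_PBS ran from -0.18 to 0.03. Sgcd had 204 to 404 counts per library.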
